A study of Mus musculus with 8 samples.

Results

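Alb, Afp, Ttr, Trf, Apoa1, Apoa2, Apoa4, Apob, Apom and Hnf4a are transcripts of the embryonic liver bud and of the endoderm layer of the yolk sac. These 10 genes were taken by symbol from a table of 55421 genes, and all 10 had a row. They were measured in mouse embryos of embryonic day 9.5 (E9.5), in vagal tissue, which lies beside somites 1 to 7. They were chosen as a guide to how much of such tissue each dissected sample held, a use that was not tested. Poly-A RNA was sequenced from 4 samples labelled Rdh10(trex/trex) mutant (trex below) and 4 labelled wt. RDH10 oxidises retinol to retinaldehyde on the way to retinoic acid, and no further allele, treatment or strain is given for either group. Replicates are numbered 1 to 4 in both groups, as in the replicate label. Whether each sample was 1 embryo or a pool, and whether litters differed, is not labelled. The p-values therefore reflect only the spread between these samples, part of it possibly technical.

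Levels are in TPM (transcript abundance), which are scaled by gene length and by library total. Whole reads recovered from the TPM came to between 20928981 (trex replicate 3) and 23648646 (trex replicate 1) per library. Genes were tested with limma on log2(TPM + 1), and called where p, adjusted over all tested genes, was below 0.05. Rdh10 itself averaged 76.0 ± 20.2 TPM in trex against 38.8 ± 2.20 TPM in wt (SD, n = 4 each), and limma gave an adjusted p of 0.0126 (0.0546 without wt replicate 2). The neural tube gene Sox2 stood at 152.1 to 205.2 TPM in trex and at 196.8 to 228.1 TPM in wt, and the foregut and floor plate gene Shh stood at 41.4 to 43.3 TPM in trex and at 40.1 to 45.4 TPM in wt. Summed transcripts of Y-linked genes stood at 162.3 TPM in wt replicate 2 and 157.6 TPM in wt replicate 3 and at most 0.0662 TPM in the other 6 libraries.

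At this stage the liver arises as a bud of ventral foregut endoderm, next to the heart, and its cells enter the mesenchyme of the septum transversum as hepatoblasts. Before the liver works, the visceral endoderm of the yolk sac makes much of the same set of serum proteins: it secretes alpha-fetoprotein, transthyretin, transferrin and lipoproteins and takes up maternal protein. HNF4A, HNF1, FOXA and C/EBP transcription factors are the textbook regulators of this secretory programme in both tissues. Whole-tissue RNA cannot tell fewer cells of a type from less RNA per cell.

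The promoters of the members are shown first because the genes varied together between libraries. RefSeq promoters (GRCm38.p6, the assembly of mm10) were held for 8 of the 10 genes, at 10 start sites. The 170 bases that end just before the start are printed for 5 genes, 5′ to 3′, each from the plus strand, and capitals mark matches to the motifs named below. They come from chr5:90490544-90490713 (Afp), chr5:90460700-90460869 (Alb), chr2:163546985-163547154 (Hnf4a, the downstream of its 2 start sites), chr9:46228460-46228629 (Apoa1) and chr12:7977507-7977676 (Apob).

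Afp: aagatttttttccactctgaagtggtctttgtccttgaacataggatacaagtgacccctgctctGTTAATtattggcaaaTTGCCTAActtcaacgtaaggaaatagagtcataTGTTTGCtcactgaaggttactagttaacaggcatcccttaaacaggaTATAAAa

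Alb: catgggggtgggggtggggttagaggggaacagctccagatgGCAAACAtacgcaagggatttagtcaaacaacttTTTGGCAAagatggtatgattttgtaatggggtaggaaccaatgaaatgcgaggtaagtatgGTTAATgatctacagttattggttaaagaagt

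Hnf4a: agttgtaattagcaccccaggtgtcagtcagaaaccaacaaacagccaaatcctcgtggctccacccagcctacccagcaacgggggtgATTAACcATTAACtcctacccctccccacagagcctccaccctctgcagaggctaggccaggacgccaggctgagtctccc

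Apoa1: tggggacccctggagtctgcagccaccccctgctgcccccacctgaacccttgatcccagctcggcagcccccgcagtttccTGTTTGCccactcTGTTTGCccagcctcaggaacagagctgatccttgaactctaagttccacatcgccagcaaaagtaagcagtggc

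Apob: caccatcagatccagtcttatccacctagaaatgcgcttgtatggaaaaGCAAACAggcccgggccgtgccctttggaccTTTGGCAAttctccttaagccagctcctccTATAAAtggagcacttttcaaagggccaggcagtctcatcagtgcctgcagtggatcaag

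Both strands of the 250 bases before each start were searched. The HNF1 core site GTTAAT, searched with its reverse complement, was found before Afp, Alb and Hnf4a, 3 of the 8 genes with a promoter, and in 6.43% of all 32851 promoters in the RefSeq table. It began 105 bases before the start of Afp and 32 bases before that of Alb. The downstream start site of Hnf4a had 2 copies, beginning 81 and 74 bases before it. The FOXA motif TGTTTGC was found before Afp, Alb, Apoa1 and Apob and in 4.30% of all promoters, and Apoa1 carried 2 copies. The other FOXA motif searched, TGTTTAC, was found before Apoa2 alone and in 3.17% of all promoters. The C/EBP motif TTGCNNAA was found before Afp, Alb, Apoa2 and Apob and in 9.56% of all promoters. TATAAA was found before Afp, Apoa2 and Apob and in 12.4% of all promoters, beginning 7 bases before the start of Afp. The letters CAAAGTCCA (HNF4, in 0.384% of all promoters), TTGTGCAA (C/EBP, 0.895%) and the full palindromic HNF1 site (0.00913%) were in none of these windows. The windows of Apoa4 and Apom held none of the letters searched. Windows were set by RefSeq starts, and these 2 lay largely inside the gene bounds given below. The Apoa4 window was 46240594 to 46240843 on chromosome 9, where the gene starts at 46240696. The Apom window was 35131802 to 35132051 on chromosome 17, where the minus-strand gene reaches to 35132050. The windows of Apoa1 and Apob also ran a little past the first base of the gene. A match is a description of the sequence and says nothing of binding.

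The transcripts were close to absent in some libraries of each genotype and plain in others. Summed over the 10 genes, they came to 11.6, 34.4, 246.9 and 502.6 TPM in trex replicates 1, 2, 3 and 4, against 16.2, 9.29, 175.8 and 187.4 TPM in wt replicates 1, 2, 3 and 4. Trex replicate 1, wt replicate 1 and wt replicate 2 were low, trex replicate 2 was a little higher, and replicates 3 and 4 of both genotypes were high. The highest library stood 43.2-fold above the lowest within trex and 20.2-fold within wt. The means were 198.9 ± 228.5 TPM in trex against 97.2 ± 97.6 TPM in wt (SD, n = 4 each). Their ratio was 2.05, and 1.01 without trex replicate 4. In reads, the sum was 129, 491, 3762 and 8353 in the trex libraries, against 147, 118, 2697 and 3013 in the wt libraries. At least 10 reads were reached by 5, 7, 9 and 10 of the 10 genes in trex, against 3, 2, 9 and 9 in wt.

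**Figure D1:**
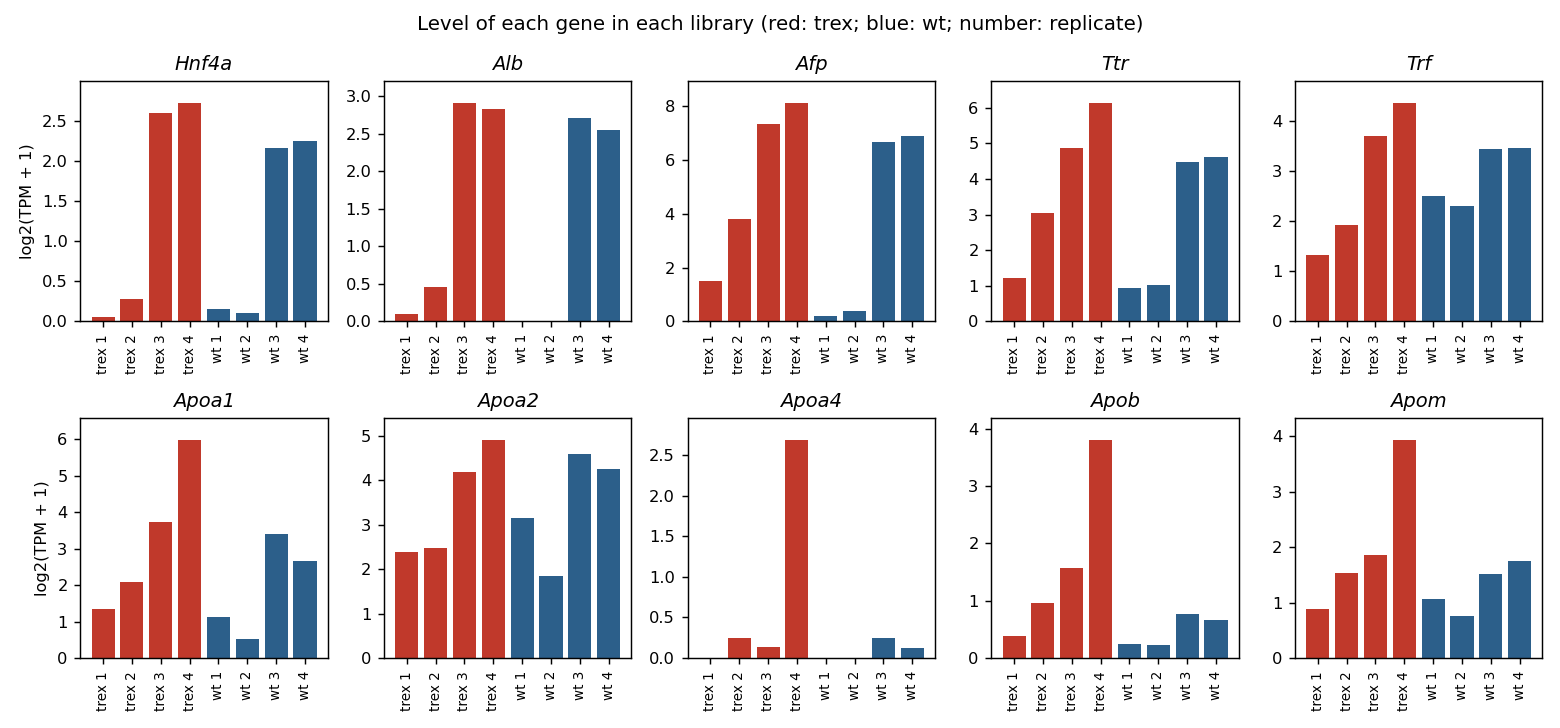
Bars give log2(TPM + 1) of each of the 10 genes (1 panel each) in each library, trex replicates 1 to 4 in red on the left and wt replicates 1 to 4 in blue on the right. Each panel has its own axis from 0, and Hnf4a, Alb, Afp, Ttr and Trf are lower in replicates 1 and 2 than in replicates 3 and 4 of both genotypes, while Apoa4, Apob and Apom stand out in trex replicate 4.

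Hnf4a, the nuclear receptor that drives hepatocyte and visceral endoderm gene expression (ENSMUSG00000017950, chromosome 2, 163506808 to 163572910, plus strand, mm10), showed this split plainly. It stood at 0.0359, 0.216, 5.04 and 5.61 TPM in trex replicates 1 to 4, against 0.114, 0.0731, 3.48 and 3.74 TPM in wt replicates 1 to 4. These were 1, 6, 129 and 159 reads in trex and 3, 2, 98 and 105 reads in wt. The 4 low libraries held at most 0.216 TPM and the 4 high ones at least 3.48 TPM, and the genotypes overlapped. The log2 difference between the genotypes was 0.25 ± 0.78 (SE; adjusted p 0.855 in limma).

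Alb and Afp, neighbours on chromosome 5 with 14134 bp between them, encode albumin, the main serum protein of the adult, and alpha-fetoprotein, its fetal counterpart. Alb (ENSMUSG00000029368, 90460897 to 90476602, plus strand) stood at 0.0740, 0.371, 6.52 and 6.11 TPM in trex replicates 1 to 4, against 0, 0, 5.56 and 4.85 TPM in wt replicates 1 to 4. No Alb read was found in wt replicates 1 and 2, which allows up to 0.236 and 0.226 TPM there (3 reads). Afp (ENSMUSG00000054932, 90490737 to 90508907, plus strand) was the most abundant of the 10 per length in the 4 high libraries. It stood at 1.801, 13.0, 160.6 and 277.9 TPM in trex replicates 1 to 4, against 0.164, 0.314, 100.4 and 119.2 TPM in wt replicates 1 to 4. Afp made up 15.5%, 37.6%, 65.0% and 55.3% of the summed TPM of the 10 genes in trex replicates 1 to 4, against 1.01%, 3.38%, 57.1% and 63.6% in wt replicates 1 to 4. Its highest library stood 154.3-fold above its lowest within trex and 727.2-fold within wt.

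Ttr and Trf encode the carriers of thyroid hormone and of iron in blood. Ttr (ENSMUSG00000061808, chromosome 18, 20665280 to 20674321, plus strand) stood at 1.32, 7.33, 28.5 and 69.2 TPM in trex replicates 1 to 4, against 0.931, 1.04, 21.2 and 23.4 TPM in wt replicates 1 to 4. Trex replicate 4 was highest, and trex replicate 2 lay between the low and the high libraries. Trf (ENSMUSG00000032554, chromosome 9, 103204001 to 103230444, minus strand) stood at 1.51, 2.77, 12.04 and 19.5 TPM in trex replicates 1 to 4, against 4.66, 3.93, 9.80 and 9.95 TPM in wt replicates 1 to 4. Trf had the same low and high libraries but a narrower span, with a 12.9-fold range in trex and a 2.53-fold range in wt. In wt replicate 1, where the 10 genes summed to 16.2 TPM, Trf and Apoa2 alone stood at 4.66 and 7.88 TPM.

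The apolipoproteins differed more among themselves. Apoa1 and Apoa4, with 10229 bp between them on chromosome 9, encode components of high-density lipoprotein and of chylomicrons. Apoa1 (ENSMUSG00000032083, 46228580 to 46230466, plus strand) stood at 1.54, 3.23, 12.4 and 62.3 TPM in trex replicates 1 to 4, against 1.19, 0.428, 9.56 and 5.29 TPM in wt replicates 1 to 4. Apoa4 (ENSMUSG00000032080, 46240696 to 46243459, plus strand) stood at 0, 0.191, 0.104 and 5.44 TPM in trex replicates 1 to 4, against 0, 0, 0.189 and 0.0948 TPM in wt replicates 1 to 4. Apoa4 had 58 reads in trex replicate 4 and at most 2 in any other library.

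Apoa2, a second protein of high-density lipoprotein (ENSMUSG00000005681, chromosome 1, 171225054 to 171226379, plus strand), stood at 4.197, 4.53, 17.2 and 29.2 TPM in trex replicates 1 to 4, against 7.88, 2.63, 23.0 and 17.9 TPM in wt replicates 1 to 4. Its range was 6.95-fold in trex and 8.74-fold in wt, and no library was without it. Apob, the structural protein of low-density lipoprotein (ENSMUSG00000020609, chromosome 12, 7977648 to 8016835, plus strand), stood at 0.311, 0.948, 1.99 and 13.0 TPM in trex replicates 1 to 4, against 0.185, 0.177, 0.713 and 0.580 TPM in wt replicates 1 to 4. Apom, a lipocalin that carries sphingosine 1-phosphate (ENSMUSG00000024391, chromosome 17, 35128997 to 35132050, minus strand), stood at 0.856, 1.89, 2.61 and 14.3 TPM in trex replicates 1 to 4, against 1.09, 0.696, 1.86 and 2.38 TPM in wt replicates 1 to 4. For Apob and Apom, trex replicate 4 stood apart from the 7 other libraries. Genes that overlap Afp, Apoa4 and Hnf4a in the annotation, mostly antisense, were at 0 TPM in every library.

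Between the genotypes, 0 of the 9 members that reached a mean of 1 TPM were called in limma, where 8.71% of all 15717 tested genes were called (777 higher, 4.94%, and 592 lower, 3.77%, in trex; 633 higher and 739 lower after quantile normalization). At an unadjusted p below 0.05, 0 of the 9 members stood out, where 29% of tested genes did. With no filter, 0 of the 10 members were called, where 2.27% of 30544 genes were, and limma voom on the recovered reads called 0 of 9, where 9.31% were. All 10 genes overlapped between trex and wt, a count that was not taken over all tested genes. Of the 9 log2 differences, 8 were above 0, with a median of 0.78 beside 0.04 over all tested genes, but each had a wide error. The median SE was 0.78 on the log2 scale over the members and 0.11 over all tested genes.

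On the log2(TPM + 1) scale the largest differences were those of Afp and Apoa1, an order that depends on the pseudocount, since at 0.1 Apob (2.02) stood above Apoa1 (1.73). By the ratio of mean TPM, Apob (9.83) stood above Apoa1 (4.82) and Afp (2.06). Afp averaged 113.3 ± 131.5 TPM in trex against 55.0 ± 63.7 TPM in wt (SD, n = 4 each). Its log2 difference of 1.64 had a 95% interval of -2.92 to 6.21 and an adjusted p of 0.610 in limma. Apoa1 averaged 19.9 ± 28.7 TPM in trex against 4.12 ± 4.21 TPM in wt, with a log2 difference of 1.36 ± 1.02 (SE; adjusted p 0.393 in limma). Apob had the smallest adjusted p of the 10 genes, 0.243 in limma, with a log2 difference of 1.21 (95% interval -0.25 to 2.66) and an exact two-sided permutation p of 0.114, where 4 against 4 can reach 0.0286. It averaged 4.07 ± 6.01 TPM in trex and 0.414 ± 0.274 TPM in wt. Limma with array weights, which count libraries by their fit to the group, called Apob with an adjusted p of 0.0379 and a log2 difference of 1.32, the 1 call among 9 members in a fit that called 35.1% of all tested genes. Without trex replicate 4 the log2 differences of Afp, Apoa1, Apob, Ttr and Apom were 0.66, 0.46, 0.50, 0.28 and 0.15. Those of Alb, Hnf4a, Apoa2 and Trf were then -0.16, -0.19, -0.45 and -0.61.

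Ttr, Apom, Alb, Hnf4a, Apoa2 and Trf had log2 differences of 1.06, 0.78, 0.26, 0.25, 0.03 and -0.09, with adjusted p-values of 0.590, 0.397, 0.867, 0.855, 0.984 and 0.935 in limma. The 95% intervals of Alb (-1.76 to 2.28) and Hnf4a (-1.54 to 2.03) span a fall and a rise of several-fold. Apoa4 averaged 1.43 ± 2.67 TPM in trex and 0.0709 ± 0.0904 TPM in wt, below the filter, and had an adjusted p of 0.586 in limma with no filter.

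Within a genotype the members were among the most variable genes of the table. The residual SD of log2(TPM + 1) within a genotype ran from 0.98 for Apom to 3.44 for Afp over the 9 tested members, with a median of 1.33, beside a median of 0.15 over all tested genes. The lowest member lay at the 98.3 percentile of all tested genes and the median member at the 99.5 percentile.

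**Figure D2:**
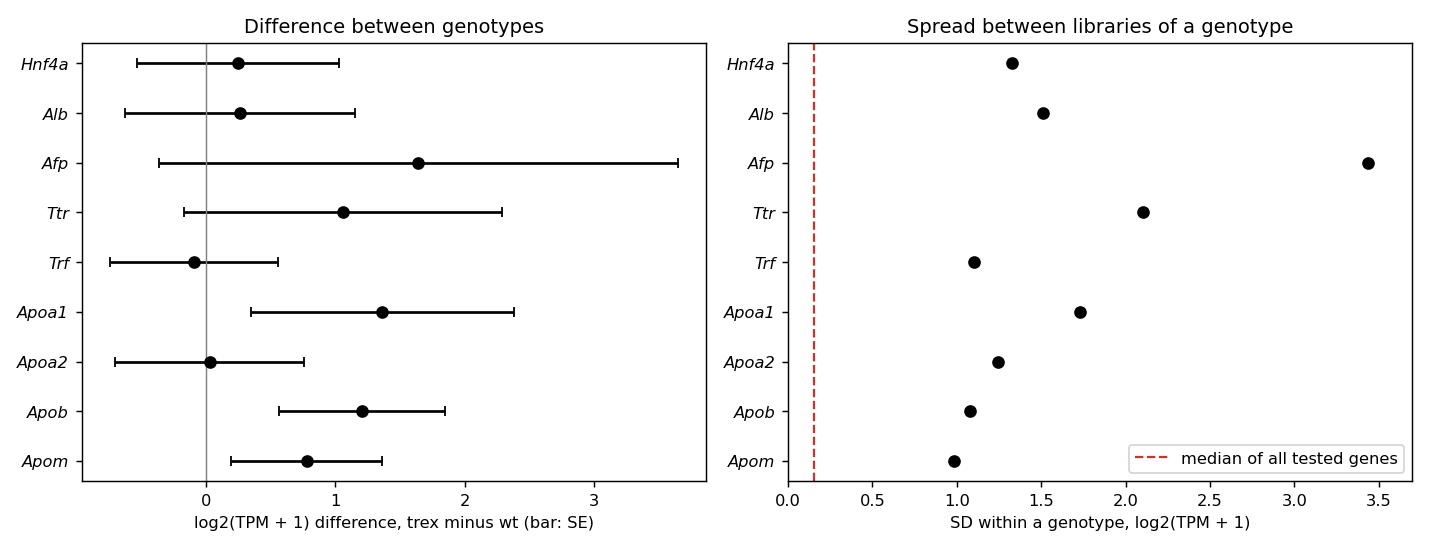
Left, the log2(TPM + 1) difference, trex minus wt, of the 9 tested genes with its SE as a bar. Right, the SD between libraries of a genotype on the same scale, with a dashed line at the median of all tested genes (0.15). All 9 SDs lie far to the right of the line, and each SE bar is wide.

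Over the 8 libraries the members moved together pair by pair. Pearson correlations of log2(TPM + 1) ran from 0.459 (Apoa4 with Alb) to 0.993 (Hnf4a with Alb) over the 45 pairs, with a median of 0.867. The next highest were Ttr with Afp (0.989) and Apom with Apob (0.975). The 8 points share their libraries, so these values only describe how the libraries differ. For genes such as Hnf4a, Alb, Ttr and Afp that is a low and a high set. Apob and Apom instead stood apart in trex replicate 4, at 13.0 and 14.3 TPM. They reached at most 1.99 and 2.61 TPM in any other library, so their correlation rests largely on trex replicate 4.

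Trex replicates 3 and 4 were both high in Alb and Hnf4a but differed in apolipoproteins. The ratio of trex replicate 4 to trex replicate 3 was 1.11 for Hnf4a (exact 95% counting interval 0.877 to 1.42) and 0.937 for Alb (0.682 to 1.29). Apoa1 stood 5.04-fold higher (3.97 to 6.47), Apob 6.55-fold (5.50 to 7.83) and Apom 5.49-fold (3.10 to 10.5). Apoa4 stood 52.4-fold higher, on 58 reads against 1 read, with an interval of 9.04 to 2105. These intervals cover counting error between 2 libraries and say nothing of the genotypes. Afp (1.73-fold), Ttr (2.43-fold), Trf (1.62-fold) and Apoa2 (1.70-fold) lay between. Over all tested genes the median log2 difference between these libraries was -0.01. Between the high wt libraries, wt replicate 4 over wt replicate 3, the ratios were 0.553 for Apoa1, 0.814 for Apob, 0.872 for Alb and 1.19 for Afp.

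Levels were also taken per Alb, as TPM over TPM within a library. Apob per Alb was 0.305 in trex replicate 3 and 2.13 in trex replicate 4 (exact 95% intervals 0.231 to 0.405 and 1.71 to 2.69), against 0.128 and 0.120 in wt replicates 3 and 4. Apoa1 per Alb was 1.89 and 10.2 in trex replicates 3 and 4, against 1.72 and 1.09 in wt replicates 3 and 4. Apom per Alb was 0.400 and 2.34 in trex replicates 3 and 4, against 0.335 and 0.490 in wt replicates 3 and 4. Hnf4a per Alb was 0.773 and 0.918 in trex replicates 3 and 4, against 0.626 and 0.772 in wt replicates 3 and 4. Ttr per Alb was 4.36 and 11.3 in trex replicates 3 and 4, against 3.82 and 4.82 in wt replicates 3 and 4. The ratios of trex replicate 3 lay near those of wt for Apoa1, Apom, Ttr and Hnf4a, while its Apob per Alb was above both wt values. Alb had at least 10 reads in these 4 libraries only, so no other library was used.

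A few genes of yolk sac, absorptive endoderm or liver were highest in trex replicate 4. Cubn, which encodes cubilin, a receptor for protein uptake in visceral endoderm, stood 9.87-fold higher in trex replicate 4 than in trex replicate 3 (interval 7.22 to 13.8), at 5.36 TPM, and at most 0.543 TPM in the other 7 libraries. Amn, which encodes amnionless, the partner of cubilin, stood at 2.96 TPM there and at most 0.716 TPM elsewhere. Slc2a2, a glucose transporter listed with the hepatoblast markers, stood at 1.66 TPM there and at most 0.449 TPM elsewhere. Spink1 stood 2.66-fold higher in trex replicate 4 than in trex replicate 3, Lrp2 1.21-fold and Mttp 1.12-fold (interval 0.992 to 1.27). Spink1 was highest in trex replicate 4, while Lrp2 and Mttp were highest in trex replicate 1, at 12.9 and 17.85 TPM. Other yolk sac markers went both ways in trex replicate 4 against trex replicate 3. Dab2 (66.9 against 62.6 TPM), Ctsz (173.9 against 157.8 TPM) and Slc39a8 (16.3 against 15.3 TPM) were near level. Fgf8 was lower (16.5 against 19.7 TPM). Rhox5 (15.8 against 10.5 TPM), Slc39a5 (2.91 against 1.44 TPM) and Soat2 (2.39 against 1.79 TPM) were higher. Among secreted proteins, Rbp4 stood 2.58-fold higher (2.27 to 2.94), while several were close to equal. The ratio was 1.06 for Itih2 (0.938 to 1.19), 1.00 for Serpina6, 1.08 for Serpind1 and 0.705 for Serpina1b (0.517 to 0.957). The ratio was 0.846 for Cebpa, a hepatic transcription factor, and 1.34 for Fgb, a fibrinogen chain. The 16 yolk sac visceral endoderm markers summed to 277.3 to 418.4 TPM in trex, highest in replicate 1, and to 226.5 to 239.7 TPM in wt. Each had a read in at least 1 library. Ctsz and Dab2 weigh heavily in these sums, at 249.6 and 75.4 TPM in trex replicate 1 and 140.6 and 40.1 TPM in wt replicate 1. Cubn, Amn and Spink1 stood at 0.395, 0.282 and 2.62 TPM in trex replicate 1. The part of yolk sac endoderm in the values of trex replicate 4 was not tested.

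**Figure D3:**
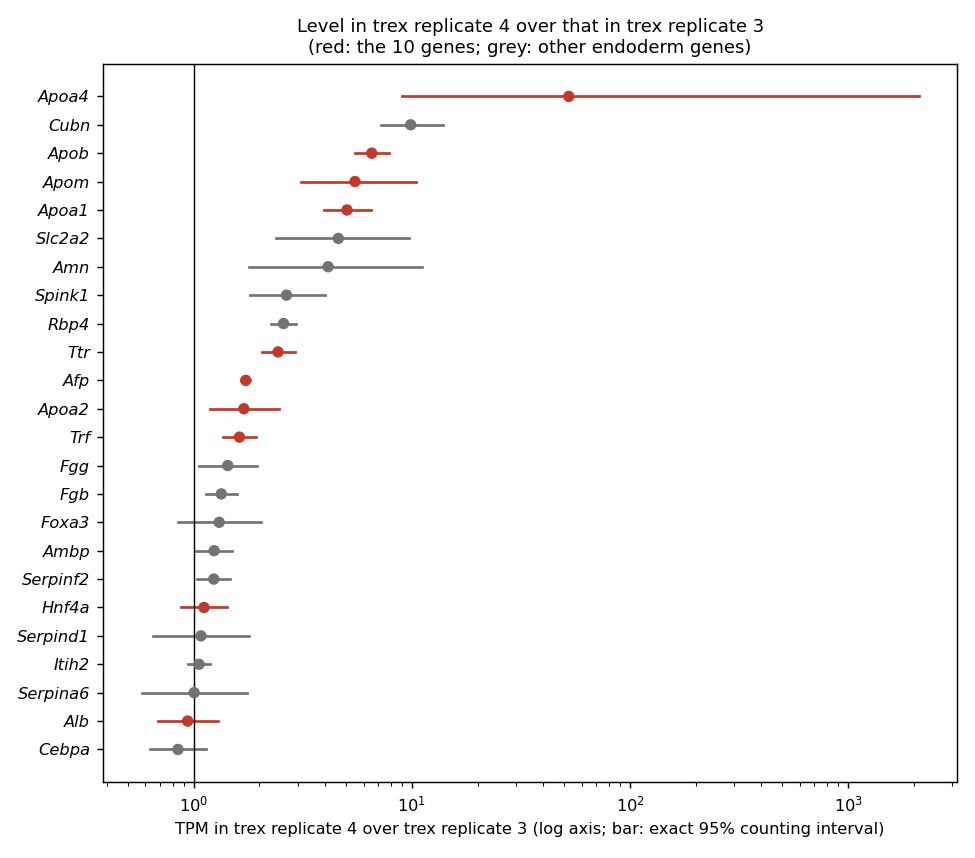
Points give the TPM in trex replicate 4 over that in trex replicate 3 on a log axis, with exact 95% counting intervals, for the 10 genes (red) and other endoderm genes (grey). Hnf4a and Alb lie at 1.11 and 0.937, near the line at 1, while Apoa1, Apom and Apob lie at 5.04 to 6.55 and Cubn at 9.87.

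Lists of endoderm genes and of neighbouring tissues were read beside the members. Of 27 other genes listed as secreted proteins of liver and yolk sac, 15 were tested and none was called in limma. The median log2 difference of these 15 was 0.30, beside 0.04 over all tested genes. The list also held Mttp and Amn, which are not serum proteins and were counted among the yolk sac markers too. Of the 27, 10 had a correlation above 0.8 with the mean level of the members. The fibrinogen chain Fgb stood at 0, 0.365, 11.98 and 16.0 TPM in trex replicates 1 to 4, against 0.145, 0.139, 9.04 and 12.7 TPM in wt replicates 1 to 4. The plasma protein Itih2 stood at 0.366, 1.26, 29.2 and 30.8 TPM in trex replicates 1 to 4, against 1.05, 1.596, 21.1 and 28.5 TPM in wt replicates 1 to 4. Both had the low and high libraries of Alb and Hnf4a. The 2 most abundant genes of the list, Apoe and Vtn, did not: Apoe was highest in trex replicate 1, at 139.9 TPM, and Vtn lowest there, at 4.78 TPM.

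Of 18 hepatic and definitive endoderm transcription factors, 15 were tested, none rose and 2 fell, with a median log2 difference of 0.05. Nr2f6, an orphan nuclear receptor, fell to 103.2 ± 6.34 TPM in trex, against 163.6 ± 12.3 TPM in wt (adjusted p 0.00303 in limma). Onecut2, a factor of liver, pancreas and neurons, fell to 3.02 ± 0.65 TPM in trex, against 8.10 ± 1.45 TPM in wt (adjusted p 0.00826 in limma). Neither had a correlation above 0.8 with the mean of the members, while Foxa3, Cebpa, Nr5a2, Gata6 and Gata4 did: Cebpa stood at 1.38, 1.19, 6.79 and 5.75 TPM in trex replicates 1 to 4, against 1.12, 1.204, 3.05 and 4.24 TPM in wt replicates 1 to 4. Hhex and Prox1, early factors of the liver bud that other cells of the region also express, spanned 6.39 to 12.2 and 7.33 to 11.6 TPM in trex, against 4.55 to 7.998 and 10.8 to 12.6 TPM in wt.

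Of 16 hepatoblast markers, 10 were tested, 3 rose and 2 fell, with a median log2 difference of 0.16. The 3 were the epithelial keratins Krt8 (149.1 ± 45.0 TPM in trex against 67.3 ± 11.5 TPM in wt, adjusted p 0.0243 in limma), Krt18 and Krt19, which other epithelia share. Ass1, argininosuccinate synthase, was among those that fell, at 2.91 ± 1.08 TPM in trex against 6.15 ± 1.247 TPM in wt (adjusted p 0.0414 in limma). With single libraries left out, Krt8, Krt18, Krt19 and Ass1 were still called in 3, 1, 2 and 2 of 8 fits (limma adjusted p up to 0.0876, 0.134, 0.0996 and 0.128). Krt19 was highest in trex replicate 1, at 172.0 TPM, a library where Alb had 1 read. Dlk1 alone of the hepatoblast markers had a correlation above 0.8 with the mean of the members (0.87). It averaged 187.65 ± 56.7 TPM in trex against 181.5 ± 27.9 TPM in wt (adjusted p 0.971 in limma). Of 16 yolk sac visceral endoderm markers, 10 were tested, and 2 rose, both endocytic genes expressed well beyond the yolk sac, with a median log2 difference of 0.55. Dab2 averaged 66.2 ± 6.80 TPM in trex against 40.8 ± 1.41 TPM in wt (adjusted p 0.00334 in limma), and Lrp2 averaged 9.92 ± 2.32 TPM in trex against 4.44 ± 0.72 TPM in wt (adjusted p 0.0134 in limma, and 0.057 without wt replicate 2). Dab2 was highest in trex replicate 1, at 75.4 TPM.

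Of 10 pancreatic and duodenal bud genes, 9 were tested, 1 rose and 2 fell, with a median log2 difference of -0.24. Cdx2 alone of the list had a correlation above 0.8 with the members (0.93). Pdx1, below the filter, stood at 0, 0, 0.961 and 0.710 TPM in trex replicates 1 to 4, against 0, 0, 3.175 and 1.91 TPM in wt replicates 1 to 4. Sox9 rose to 61.2 ± 4.29 TPM in trex, against 43.7 ± 0.85 TPM in wt (adjusted p 0.00489 in limma), and Ptf1a, a pancreatic and neural progenitor factor, fell to 0.0853 ± 0.108 TPM in trex, against 2.20 ± 0.653 TPM in wt (adjusted p 0.00578 in limma). Pax6, expressed in the neural tube and the pancreas, also fell, a call lost without wt replicate 1 or 2 (limma adjusted p up to 0.0695). Of the 12 foregut and pharyngeal endoderm genes, all tested and with a median log2 difference of 0.08, 2 rose (Nkx2-3 and Foxe1) and 4 fell (Ripply3, Nkx2-1, Hoxb1 and Trh), and none had a correlation above 0.8 with the members. Foxe1 and Trh were still called in 2 and 4 of the 8 fits with a library left out. Ripply3, a pharyngeal endoderm factor, fell to 13.0 ± 2.28 TPM in trex, against 37.5 ± 1.87 TPM in wt (adjusted p 0.00108 in limma).

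Markers of tissues next to the liver bud moved with the members in part. The 10 septum transversum and hepatic mesenchyme genes, none called and with a median log2 difference of 0.34, summed to 115.5, 137.0, 222.3 and 265.2 TPM in trex replicates 1 to 4, against 87.4, 103.7, 138.0 and 171.8 TPM in wt replicates 1 to 4. The 15 cardiomyocyte genes, none called and with a median of -0.01, summed to 238.8, 263.9, 2339 and 2868 TPM in trex replicates 1 to 4, against 318.0, 1297, 681.6 and 2789 TPM in wt replicates 1 to 4. In trex, heart genes were low and high in the same libraries as Alb. In wt they were not, since wt replicate 2 held 1297 TPM of heart genes and no Alb read. The 14 primitive erythroid genes, none called and with a median of -0.41, summed to 3130 to 15988 TPM in trex and to 7280 to 16219 TPM in wt, and none had a correlation above 0.8 with the members.

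Posterior Hox genes, which mark axial level, stood beside these as a second difference between libraries. Of 14 listed, 11 were tested and 6 rose (Hoxa7, Hoxa9, Hoxb7, Hoxb9, Hoxc6 and Hoxc8), with a median log2 difference of 2.13. Not all listed genes were higher in trex. Hoxa10, below the filter, averaged 0.0840 TPM in trex and 0.933 TPM in wt, and Hoxd10 averaged 1.08 TPM in trex and 1.23 TPM in wt. Hoxa7 and Hoxb9 were still called in 1 and 3 of the 8 fits with a library left out, and Hoxc6 in 7, lost without trex replicate 4. The 14 genes summed to 587.3, 638.5, 495.2 and 631.7 TPM in trex replicates 1 to 4, against 124.6, 93.9, 247.6 and 244.9 TPM in wt replicates 1 to 4. Hoxb9 alone averaged 330.8 TPM in trex and 59.2 TPM in wt, so it weighs heavily in these sums. In wt the replicates 3 and 4 that were high in the liver and yolk sac genes were also the higher in posterior Hox genes. In trex the sums did not follow the members. The part of the extent of the dissection in the members' levels was not tested.

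**Figure D4:**
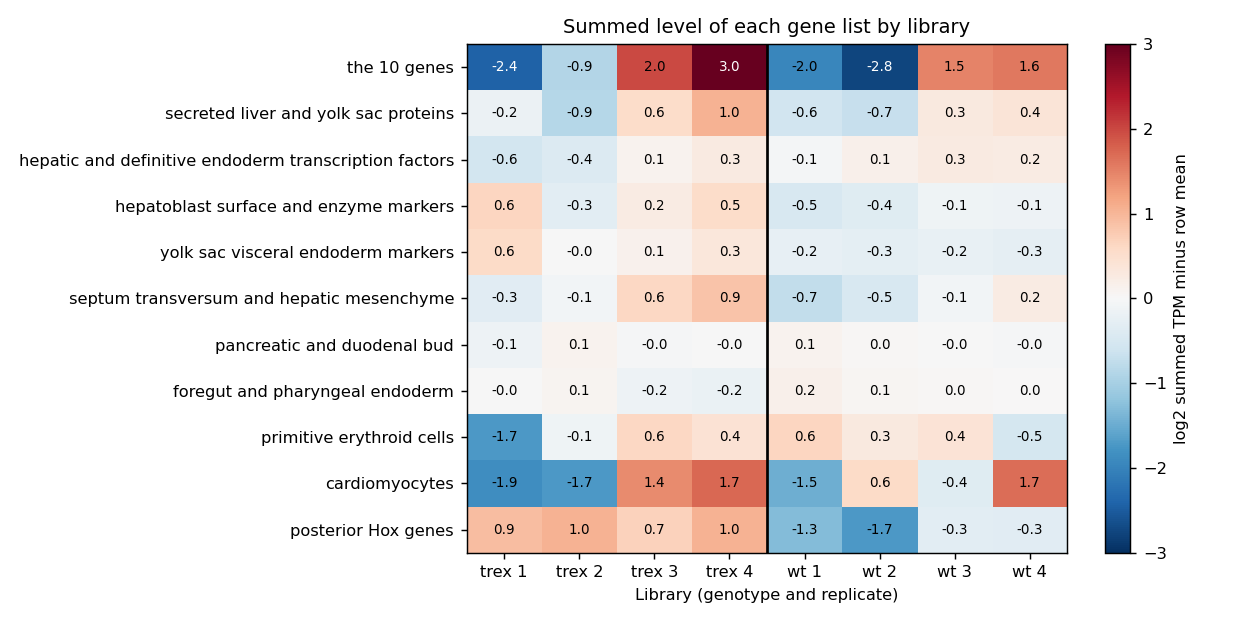
Each cell gives the summed TPM of a gene list in a library as log2 minus the mean of its row, with trex replicates left of the black line and wt replicates right of it. The 10 genes run from low in replicates 1 and 2 to high in replicates 3 and 4 in both genotypes, while the sums of posterior Hox genes (495.2 to 638.5 TPM in trex, 93.9 to 247.6 TPM in wt) divide by genotype.

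The genes whose pattern was most like that of the members were sought among 305 non-member genes with a mean of at least 5 TPM and a range of at least 2 on the log2 scale. The 12 with the highest Pearson correlation with the mean of the members over the 8 libraries were Rbp4 (0.95), Sfrp5 (0.93), Serpinf2 (0.93), Fgb (0.93), Ambp (0.93), Spink1 (0.91), Itih2 (0.90), Colec10 (0.88), Nppa (0.86), Dsp (0.82), Hcn4 (0.81) and Gata4 (0.81). None of the 12 was called in limma. Rbp4, the retinol carrier of blood, stood at 15.4, 17.7, 44.2 and 114.0 TPM in trex replicates 1 to 4, against 6.71, 5.78, 35.8 and 26.0 TPM in wt replicates 1 to 4. It was highest in trex replicate 4, as Ttr and Apoa1 were. Ambp, the precursor of alpha-1-microglobulin, stood at 0, 1.85, 26.6 and 33.0 TPM in trex replicates 1 to 4, against 0.392, 0.376, 21.6 and 25.6 TPM in wt replicates 1 to 4. Nppa, the atrial natriuretic peptide of heart muscle, stood at 0.802, 1.41, 121.0 and 184.5 TPM in trex replicates 1 to 4, against 0, 8.97, 11.9 and 50.9 TPM in wt replicates 1 to 4. The heart genes Nppa and Hcn4 and the heart and endoderm factor Gata4 thus stood among the 12 beside liver plasma proteins.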

How the data were processed

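RNA was sequenced from 4 trex and 4 wt vagal regions in poly-A, strand-specific libraries. The deposited values are TPM, made by the authors, 1 column per sample. The submitters' processing notes name CASAVA 1.8.2, STAR and mm10. How reads were counted (tool, strand, multiply mapped reads, annotation) is not given in the sources used, and gene names and lengths were taken from GENCODE M21 (55240 of 55421 identifiers matched). TPM keeps no depth, but multiplied by exonic length 98.7% to 98.9% of low values (up to 200 reads) were whole multiples of 1 step within 0.001 read, which gave the reads per library. These reads served for depth, counting intervals and an added alternative. Intervals and the limit of 3 reads for a count of 0 cover counting error only, and reads without molecular identifiers are not independent molecules.

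Genes with a mean TPM of at least 1 were tested with limma 3.58.1 in R 4.3.3 (lmFit, eBayes with a trend, two-sided) on log2(TPM + 1), with a genotype term alone and Benjamini-Hochberg adjustment, and called at an adjusted p below 0.05. A log2 difference on this scale understates the change of weakly expressed genes. The fit was tested on simulated data. Exact permutation tests used the 70 arrangements of 4 against 4. The members and the 10 gene lists were chosen with earlier results of these data known. Besides all members and Rdh10, the naming rule took the called genes of each list (at most 3 by p), its 2 most abundant genes and the 12 most alike genes, leaving out predicted genes and pseudogenes. A few listed genes are left unnamed here and stay in the counts. Other named genes were picked with their values known. Alternatives were other pseudocounts, filters, scalings, eBayes settings, weights and covariates, the replicate number as a block, and leaving out each library.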

Additional observations from a re-analysis of the deposited data

Results flagged for a closer look

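Single libraries that stood far from the other 3 of their genotype were looked for in 154 sets of 4 values, and 6 sets met the limit (Dixon's 95% critical value for a gap over the range). For normal values chance gives about 1 in 20, or 7.7 of 154, and the 6 sets were no more than that. The sets were unlogged TPM of genes that share libraries and vary together, so this number cannot tell how many arose by chance. In trex, replicate 4 stood apart for 5 genes, of which Cubn and Amn were picked with their values known. Apoa4 stood at 5.44 TPM in it and at 0 to 0.191 TPM in the other trex libraries. Apob stood at 13.0 TPM, the others at 0.311 to 1.99 TPM. Apom stood at 14.3 TPM, the others at 0.856 to 2.61 TPM. The visceral endoderm uptake genes Cubn and Amn stood at 5.36 and 2.96 TPM, the others at up to 0.543 and 0.716 TPM. Rdh10 stood at 106.0 TPM in trex replicate 1, against 62.7 to 69.0 TPM in the other trex libraries.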

How the results depend on the processing

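The count of called members was 0 under every alternative except array weights, which called 1 (Apob, log2 difference 1.32). The count over all genes was 1369 and moved by more than 1.5 times to 694 with no filter, 5524 with array weights, 687 with the replicate block and 39 with sex, read from Y-linked transcripts, as a covariate. It ran from 201 (without wt replicate 2) to 2911 (without trex replicate 2) when single libraries were left out, and was 576 and 369 when trex replicate 3 or 4 was dropped and 466, 403 and 606 when wt replicate 1, 3 or 4 was. Of the 25 called genes of the lists (Rdh10 counted with them), none changed sign in any alternative, but only Hoxc8, Nr2f6, Ripply3 and Nkx2-1 stayed called with the sex covariate (adjusted p up to 0.0475 in limma). Scaling moved the split of 777 higher and 592 lower calls to 633 and 739 with quantile normalization and to 692 and 692 with median-of-ratios rescaling. With voom on the recovered reads, chosen after seeing the data, it was 642 and 820. The ratio of the summed levels, trex over wt, was 2.05 and ran from 1.01 (without trex replicate 4) to 2.96 (without wt replicate 4). Afp, Ttr and Apoa1 kept the sign of their log2 difference in all 21 alternatives, and Apob and Apom in all 20 run for them. Alb and Hnf4a kept it in 16 of 20, Trf in 15 of 21 and Apoa2 in 12 of 21. Replicate numbers did not pair the samples 1 to 1: same-numbered deviations correlated at 0.162, -0.0225, -0.00449 and 0.252, and not every sample correlated best with its own number. Trex replicates 1 and 2 correlated at 0.162 and 0.150 with wt replicate 1 and at -0.146 and -0.157 with wt replicate 4. Trex replicates 3 and 4 did the reverse, at -0.162 and -0.261 and at 0.155 and 0.252. A batch shared across genotypes is not labelled and was not tested. The block called 0 members. At 1 to 6 reads, as for Hnf4a in 4 libraries, a level is known only within a few-fold.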
